A study of Xenopus laevis with 59 samples.

Results

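The transcripts described here encode zona pellucida (ZP) glycoproteins of the *X. laevis* egg envelope. They were chosen by name: every transcript of the count table whose symbol, without the homeolog suffix, starts with zp and a digit, or is zpd or zpax. The rule found 8 of 32291 transcripts: *zp2.L*, *zp3.2.L*, *zp3.S*, *zp4.2.L*, *zp4.L*, *zp4.S*, *zpax.L* and *zpd.L*. The suffixes .L and .S mark the long and short chromosome copies (homeologs) of the allotetraploid *X. laevis* genome, and *zp4* was the only symbol among the members with both copies. Another 5 symbols starting with zp fell outside the rule, among them *zpr1.L*, *zpy1.L* and *zpy1.S* with 23615, 38172 and 25771 counts over all libraries. They were left out by name only, so the 8 members may not be all of the envelope transcripts. The word family below means these 8 members.

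RNA localization during oogenesis had been measured by TOMO-Seq, in which an oocyte is cryosectioned along the animal-vegetal (A-V) axis and its slices are pooled into 5 sections. Section A is the animal and E the vegetal end, C the centre, with B and D between them. The 12 untreated oocytes fell into 4 size classes. The 3 very small oocytes measured 560 to 580 µm across, the 5 small ones 720 to 810 µm, both medium ones 1050 µm and the 2 big ones 1140 and 1200 µm. The 9 small, medium and big oocytes came from female 1 and the 3 very small oocytes from female 2, so that size and female cannot be told apart between very small and small oocytes. The labels give medium and big oocytes as stage V and VI, where the paper has early and late stage V. Replicates were separate oocytes of the same female, and the p-values therefore measure no spread between animals.

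ZP proteins are secreted by the growing oocyte and polymerise through their shared ZP domain into the filaments of the envelope that lies between the oocyte and its follicle cells, called the vitelline envelope in frogs. The envelope binds sperm, and after fertilization its proteins are modified so that further sperm no longer pass. The members belong to several classes. *zp2.L* is of the ZPA class, whose *Xenopus* protein takes part in sperm binding. *zp4.L* and *zp4.S* carry the synonym ZPB in RefSeq and *zp4.2.L* shares their name. *zp3.S* and *zp3.2.L* bear the name of the ZP3 class, without which mouse eggs form no zona. *zpd.L* and *zpax.L* bear the names of classes known from frogs and birds that are not part of the mouse zona.

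The 59 libraries held 1014060 to 7356435 counts (median 3617724). For very small oocyte 1 only sections B to E were used. Every library was made from the same mass of RNA, so each level below is relative to the other RNA of that library and says nothing of the amount per oocyte. The 11 oocyte marker transcripts (*gdf9*, *zar1* and others) were detected in all 4 size classes, with a summed level (CPM, the count relative to the TMM-scaled library size) of 631 to 655 in very small, 541 to 641 in small, 516 to 529 in medium and 507 to 512 in big oocytes. Markers of the cells around the oocyte were present as well. The 16 stroma and theca transcripts, including the collagen, smooth muscle actin and *tagln* genes, summed to 4.65 to 56.6 CPM in very small, 1.54 to 227 CPM in small, 254 to 377 CPM in medium and 290 to 333 CPM in big oocytes. For the 15 granulosa and follicle cell transcripts the sums were 13.4 to 21.3, 16.3 to 48.9, 31.7 to 40.6 and 41.9 to 48.5 CPM. In small oocyte 2 the stroma markers were almost absent, at 1.12 to 2.43 CPM in its 5 sections.

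All 8 members were expressed in every oocyte, and together they took 0.0940% to 0.132% of the counts. Their summed level was 1267 ± 25.1 CPM in very small (SD, n = 3), 1225 ± 64.4 CPM in small (n = 5), 984 ± 59.2 CPM in medium (n = 2) and 985 ± 53.0 CPM in big oocytes (n = 2). The family was thus 19.6% lower in medium and big than in small oocytes. Each member had at least 972 counts in every oocyte, and all 8 passed the filter on low counts in every comparison. Levels are compared here between oocytes and sections only, not between members, because transcript lengths were not used.

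The first question was whether the totals of the envelope transcripts changed as oocytes grew. They were lower in medium and big than in small oocytes for 8 of 8 members at an FDR under 0.1, and none of these changes reached 1.5-fold. Of all 21794 transcripts tested, 8.32% were lower in this comparison, and 2.14% changed by at least 1.5-fold in either direction. The median log2 change was -0.26 over the 8 members and -6.04e-05 over all transcripts tested. Small, medium and big oocytes are from the same female, so this comparison is within female 1. The oocyte markers moved in the same direction, with 5 of 11 lower and none higher (median -0.14), and the part of this shared decrease in the ZP values was not tested. Over all 4 size classes 8 of 8 members differed (background 48.8%).

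*zp3.2.L* fell most of the 8 members. Its total was 76.6, 83.5, 79.8, 86.1 and 91.5 CPM in small oocytes 1 to 5, 59.4 and 63.3 CPM in the medium and 55.3 and 57.6 CPM in the big oocytes. All 4 larger oocytes lay below every small oocyte. The log2 change was -0.49 ± 0.05 (SE, edgeR adjusted p = 0.00018), which corresponds to a mean 29.4% lower.

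*zp4.S*, the short-chromosome copy of *zp4*, had the next largest decrease. It stood at 208, 222, 227, 252 and 247 CPM in small oocytes 1 to 5, at 159 and 177 CPM in the medium and at 167 and 165 CPM in the big oocytes. The groups did not overlap, and the change was -0.46 ± 0.05 (SE, adjusted p = 0.00040). Over 17 alternatives of processing or with an oocyte left out, *zp4.S* changed by -0.50 to -0.39 and was called in each. Its homeolog *zp4.L* fell from 194, 199, 209, 214 and 225 CPM to 160 and 168 CPM in medium and 165 and 173 CPM in big oocytes. This decrease of *zp4.L* was smaller (-0.31 ± 0.04, adjusted p = 0.0012), again without overlap. With the counts of both copies summed, *zp4* changed by -0.39 (adjusted p = 0.00049).

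*zp2.L* was at 142, 149, 152, 147 and 166 CPM in small oocytes, at 109 and 124 CPM in medium and at 111 and 123 CPM in big oocytes, and changed by -0.36 ± 0.06 (SE, adjusted p = 0.0019). The larger oocytes were again all below the small ones. The other 4 members fell by less. *zpd.L* changed by -0.21 ± 0.05 (adjusted p = 0.017), from 133 to 149 CPM in small to 113 to 130 CPM in the larger oocytes. *zp3.S* changed by -0.19 ± 0.04 (adjusted p = 0.013), from 111 to 124 CPM to 102 to 105 CPM.

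The decreases of *zp4.2.L* and *zpax.L* were the least separated. *zp4.2.L* ranged from 70.6 to 83.3 CPM in small and from 59.3 to 72.1 CPM in medium and big oocytes, and the groups overlapped (-0.21 ± 0.06, adjusted p = 0.035). Without big oocyte 1 its adjusted p was 0.13, and without medium oocyte 1 it was also 0.13. *zpax.L* ranged from 202 to 236 CPM in small and from 168 to 203 CPM in the larger oocytes (-0.20 ± 0.06, adjusted p = 0.062). *zpax.L* was not called without big oocyte 1 (adjusted p = 0.22), medium oocyte 1 (0.20) or small oocyte 5 (0.12). In sections B to E alone, neither *zpax.L* (adjusted p = 0.18) nor *zpd.L* (0.18) was called. In all, 6 of 8 members had every medium and big oocyte below every small oocyte, whereas this held for 7.52% of all transcripts.

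**Figure D1:**
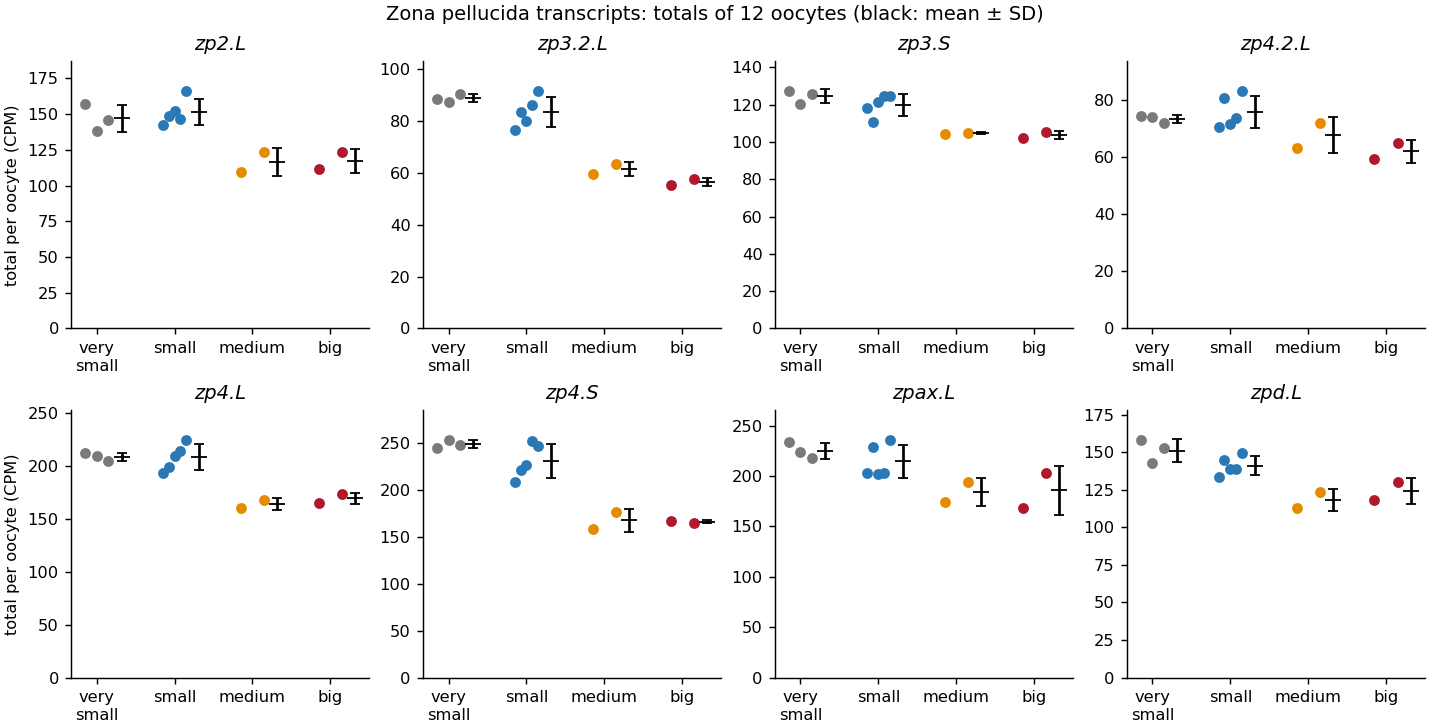
Total level of each member in CPM (vertical axis from 0) by size class (horizontal axis), with 1 coloured point per oocyte and the mean ± SD in black (n = 3, 5, 2 and 2). For *zp4.S* the 4 medium and big oocytes sit between 159 and 177 CPM, below the small oocytes at 208 to 252 CPM, whereas very small and small oocytes overlap for every member.

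The lower level was present by the medium size. Medium oocytes alone were below small oocytes for 6 of 8 members (background 5.03% of transcripts lower), with log2 changes of -0.19 to -0.45 for those 6, and *zp4.2.L* (adjusted p = 0.25) and *zpax.L* (adjusted p = 0.15) did not pass. This count depended on the oocytes, since it was 3 without medium oocyte 1 and 1 without medium oocyte 2. Between medium and big oocytes no member passed the test, with edgeR adjusted p-values of 1 for each, no unadjusted p under 0.05, and log2 differences of -0.12 to 0.08. Only 0.00459% of all transcripts were called there, so this comparison of 2 oocytes against 2 said little about any transcript.

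Very small and small oocytes differed little in their ZP totals. None of the 8 members was called (adjusted p 0.14 to 0.93, log2 differences of -0.11 to 0.04, none with an unadjusted p under 0.05), while 43.3% of all transcripts were. The largest differences were those of *zp4.S*, at 245, 254 and 248 CPM in very small oocytes (-0.11 ± 0.06, adjusted p = 0.16), and *zpd.L*, at 158, 143 and 153 CPM (-0.10 ± 0.05, adjusted p = 0.14). Small and very small oocytes overlapped for every member. Without small oocyte 5 the count rose to 2, and without small oocyte 4 or without very small oocyte 2 it was 1. This comparison shares the small oocytes with the preceding ones, and its size classes come from 2 females.

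**Figure D2:**
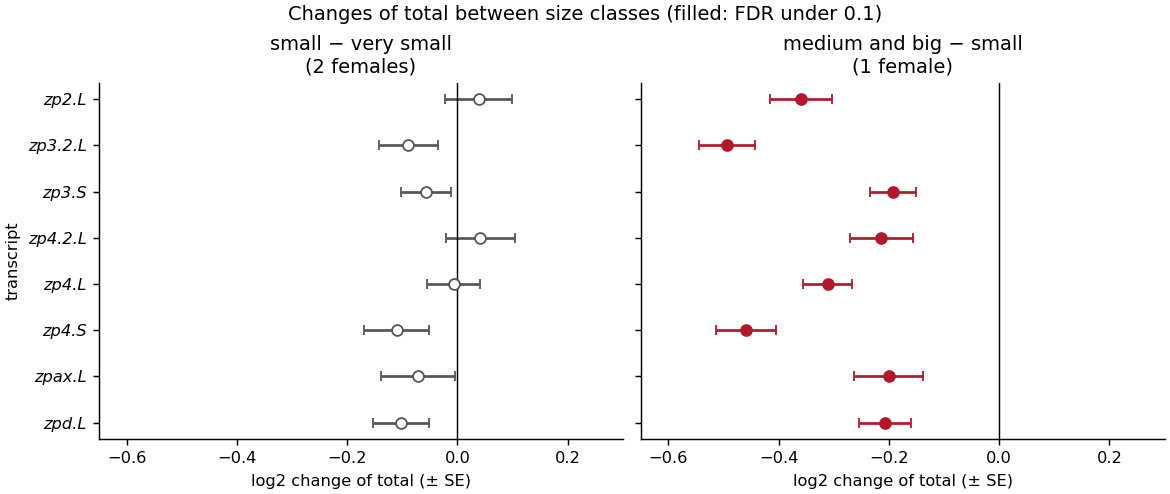
Log2 change of the total of each member (horizontal axis, ± SE) for small minus very small oocytes on the left and for medium and big minus small oocytes on the right. Filled points passed an FDR of 0.1: none on the left, where changes run from -0.11 to 0.04, and 8 of 8 on the right, from -0.49 to -0.19.

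The second question was how the envelope transcripts were spread along the A-V axis. The distribution was shallow in every size class. In a uniform oocyte each section would have the same share of the summed CPM. Such shares compare relative levels and are not amounts of RNA in a section. Per section the members' shares ranged from 16.6% to 24.2% in very small and from 11.1% to 28.8% in small oocytes. The ranges were 14.3% to 31.6% in the medium and 13.9% to 30.7% in the big ones. Differences between sections, tested within a size class with the oocyte as block, were called for 4 of 8 members in very small oocytes (background 6.34%), for 3 in small ones (8.95%), for 2 in medium ones (8.6%) and for 1 in big ones (10.1%). *zp4.S* was the only member called in all 4 size classes, with adjusted p-values of 0.0022, 0.082, 0.032 and 0.00082. The others were *zp2.L* (0.035), *zp3.S* (0.090) and *zpd.L* (0.052) in very small, *zp3.2.L* (0.043) and *zpd.L* (0.014) in small, and *zp4.2.L* (0.061) in medium oocytes. None was called in small oocytes without small oocyte 2 or without small oocyte 4, nor in very small oocytes without very small oocyte 2, and without very small oocyte 1 or 3 the count there was 2.

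In medium and big oocytes *zp4.S* was highest in section E, at the vegetal end. In section E it stood at 284 and 211 CPM in the medium and 267 and 219 CPM in the big oocytes, whereas sections A to D of the same 4 oocytes held 130 to 192 CPM. Section E was therefore the highest in each of the 4 oocytes. Its share of the summed CPM was 27.9% ± 3.90 (SD, n = 4) against 17.3% ± 0.440 in section C. Section A was above C in 4 of 4 oocytes too, by 0.23 ± 0.11 in log2 (SE), which was not called (edgeR adjusted p = 0.20). The vegetal gradient, the log2 level in E minus the mean of A, B and C, was 0.62 ± 0.09 (SE, adjusted p = 1.9e-07). Per oocyte it was 0.92, 0.29, 0.80 and 0.48 in medium oocytes 1 and 2 and big oocytes 1 and 2. It remained called with each oocyte left out, at 0.46 without medium oocyte 1 and 0.79 without medium oocyte 2.

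In small oocytes no vegetal gradient of the same transcript was called. Section A held 206, 266, 318, 333 and 243 CPM of *zp4.S* in small oocytes 1 to 5, and section E 233, 216, 258, 226 and 255 CPM. Section A was the highest in small oocytes 2, 3 and 4, while E was the highest in small oocytes 1 and 5. The vegetal gradient was 0.04 ± 0.08 (adjusted p = 0.87), ranging from -0.25 to 0.26 per oocyte, all below the lowest medium or big oocyte at 0.29. Against section C alone, E was higher in 4 of 5 small oocytes, by 0.17 ± 0.09 (edgeR SE, adjusted p = 0.55). The mean share of the summed CPM was 20.6% in E and 18.3% in C. The animal gradient, the log2 level in A minus the mean of C, D and E, was 0.30 ± 0.08 (adjusted p = 0.0055), and 0.21 without small oocyte 4 (adjusted p = 0.18). In very small oocytes A held 299 and 273 CPM and B to E 210 to 253 CPM, with an animal gradient of 0.30 ± 0.12 that was not called (adjusted p = 0.69).

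The change of the section profile between small and the larger oocytes was tested by itself. *zp4.S* was the 1 member of 8 called (adjusted p = 0.017), with 5.37% of all transcripts called. The call was lost without big oocyte 1 (adjusted p = 0.26), without medium oocyte 1 (0.54) or without small oocyte 4 (0.14), and without small oocyte 3 there were 2 members called. In the test over all 4 size classes no member passed with edgeR (*zp4.S* at an adjusted p of 0.15, background 4.6%). It was called with the oocyte as block (adjusted p = 0.072) and with DESeq2 (0.037).

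**Figure D3:**
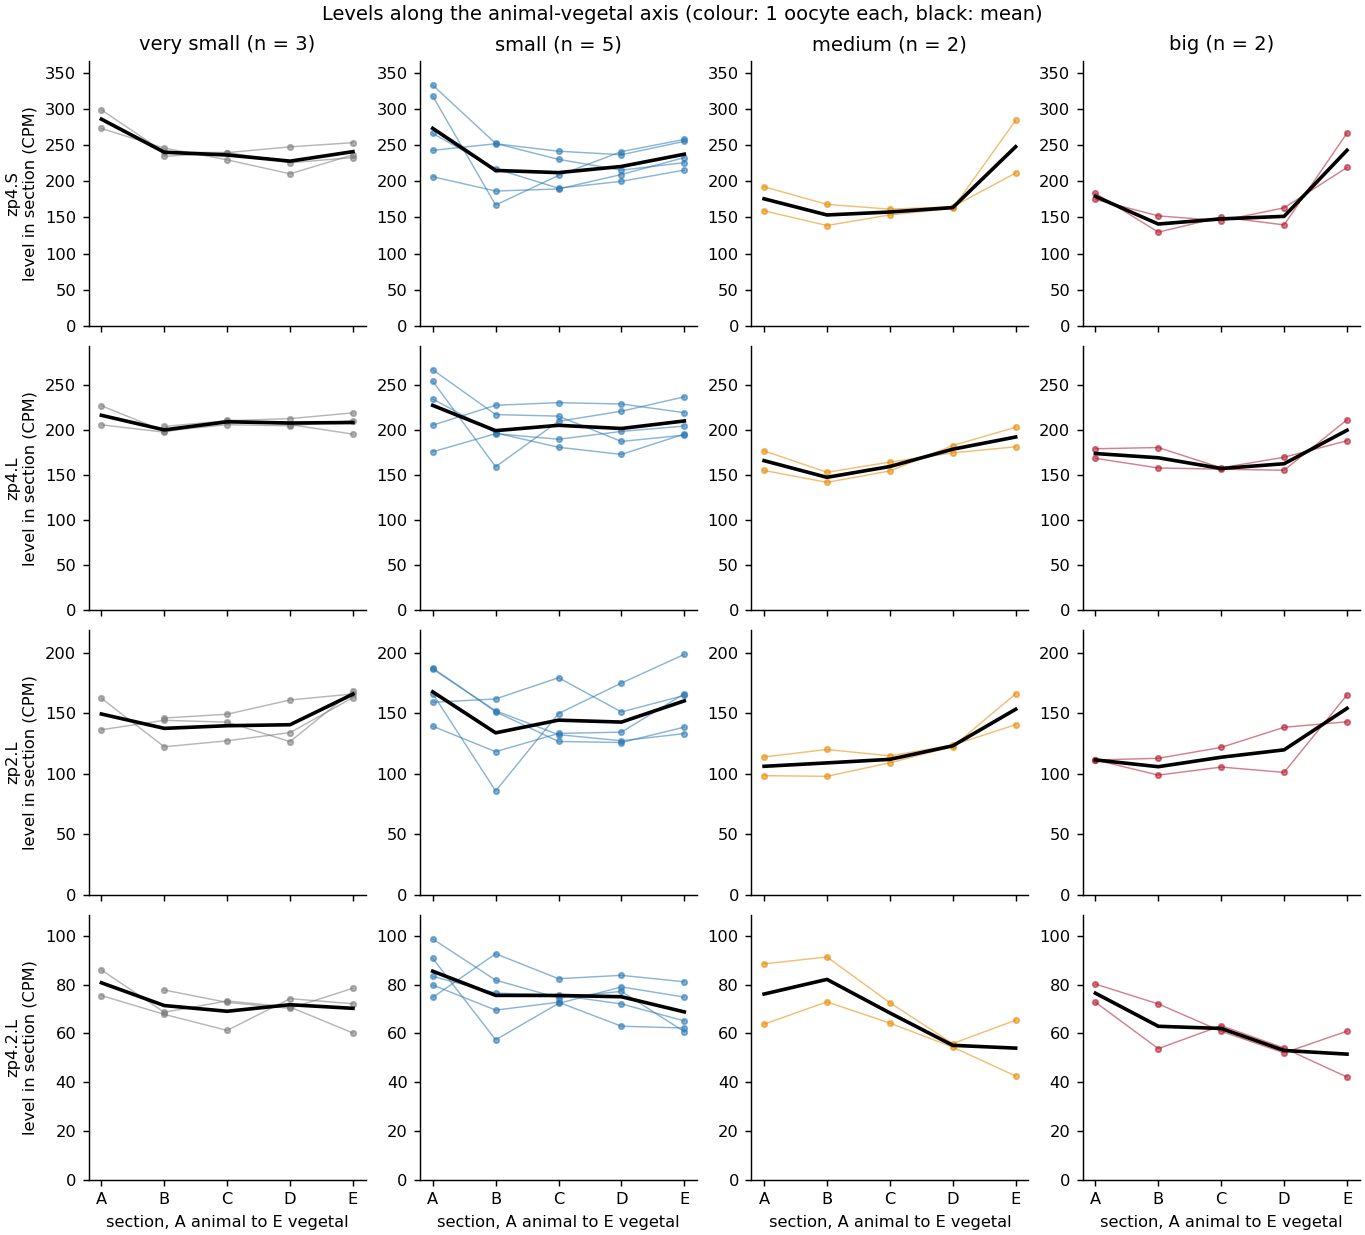
Level in CPM (vertical axes from 0) in sections A to E (horizontal axis) for *zp4.S*, *zp4.L*, *zp2.L* and *zp4.2.L* in rows and the 4 size classes in columns. Coloured lines are single oocytes and black lines the means. In medium and big oocytes *zp4.S* rises in E to 211 to 284 CPM, while *zp4.2.L* is lower in E than in A.

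The higher level in section E was shared by 2 other members. *zp2.L* was at 166, 141, 165 and 143 CPM in section E of medium oocytes 1 and 2 and big oocytes 1 and 2, and at 98.0 to 122 CPM in their sections A, B and C. Its vegetal gradient was 0.48 ± 0.11 (SE, adjusted p = 0.0012), positive in 4 of 4 oocytes. *zp4.L* reached 203, 182, 212 and 188 CPM in E against 142 to 181 CPM in A to C, with a gradient of 0.28 ± 0.08 (adjusted p = 0.010). For *zp4.L* the call was lost without medium oocyte 1 (adjusted p = 0.19) or big oocyte 1 (0.18). Higher calls thus covered 3 of 8 members (background 11.6%). Against section C alone the same 3 members were higher in E, by 0.68 for *zp4.S*, 0.45 for *zp2.L* and 0.32 for *zp4.L* (background 9.47%), but *zp2.L* and *zp4.L* were not called without medium oocyte 1 or without big oocyte 1.

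*zp4.2.L* went the other way. It held 63.8, 88.5, 72.8 and 80.3 CPM in section A of medium oocytes 1 and 2 and big oocytes 1 and 2, and 42.5, 65.5, 42.1 and 60.9 CPM in section E. Its vegetal gradient was -0.39 ± 0.10 (SE, adjusted p = 0.0028), negative in 4 of 4 oocytes, against a background of 10.1% lower calls. Its animal gradient was 0.42 ± 0.09 (adjusted p = 0.00045), positive in 4 of 4. Among the transcripts named *zp4*, *zp4.S* and *zp4.L* were thus higher and *zp4.2.L* lower in E than in A to C of the same oocytes. Against section C alone *zp4.2.L* was not called (-0.25 ± 0.12, SE, edgeR adjusted p = 0.19). In big oocyte 2 its levels in E and C were nearly equal. In these oocytes *zp3.S*, *zp3.2.L*, *zpd.L* and *zpax.L* had vegetal gradients of -0.18, -0.10, -0.10 and 0.12, none of them called.

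At the animal pole other members were higher. In small oocytes 4 of 8 members were higher in A, namely *zp3.2.L* (0.45 ± 0.09, adjusted p = 0.00053), *zpd.L* (0.40 ± 0.07, adjusted p = 7.1e-05), *zp4.S* and *zp4.2.L* (0.25 ± 0.08, adjusted p = 0.025), where 10.2% of all transcripts were. *zp4.2.L* was not called without small oocyte 2 or small oocyte 4, and only 2 members were called without small oocyte 4. Among the larger oocytes the count was again 4 of 8, now *zp4.2.L*, *zp3.2.L* (0.35 ± 0.11, adjusted p = 0.019), *zpd.L* (0.27 ± 0.08, adjusted p = 0.017) and *zp3.S* (0.23 ± 0.09, adjusted p = 0.061), with a background of 13.3%. This fell to 1 without medium oocyte 2 and to 2 without big oocyte 2.

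Against section C alone, *zp4.S* (0.38 ± 0.10, adjusted p = 0.023) and *zpd.L* (0.28 ± 0.09, adjusted p = 0.080) were higher in A of small oocytes (2 of 8, background 3.38%), and without small oocyte 4 none was. *zpd.L* was not called there without small oocyte 1 or 2, medium oocyte 1 or any very small oocyte either. *zpd.L* was also lower at the vegetal pole of small oocytes. Its share in section A was 24.4%, 28.1%, 23.9%, 24.6% and 18.8% in small oocytes 1 to 5, and in section E 17.5%, 15.4%, 18.1%, 17.6% and 19.6%. Section A exceeded section E in 4 of the 5 oocytes, with small oocyte 5 the exception. The vegetal gradient was -0.29 ± 0.07 (SE, adjusted p = 0.0059), and together with *zp3.2.L* (-0.28 ± 0.09, adjusted p = 0.061) it made 2 of 8 members lower, where 3.45% of all transcripts were. Without small oocyte 2 or small oocyte 4, *zp3.2.L* was not called. *zpax.L* had the flattest profile in the larger oocytes, at 17.7% to 22.7% per section, and passed no test along the axis. In very small oocytes no member passed either gradient with edgeR, where 1.71% of transcripts had a vegetal and 0.167% an animal gradient in either direction. Both shares are at an FDR under 0.1. The share of all transcripts passing in very small oocytes without adjustment was not counted, so the members named next have no matching background. Without adjustment the edgeR test gave an animal gradient there for 2 members, *zp4.S* and *zpd.L*, at a p under 0.05, and no vegetal gradient.

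**Figure D4:**
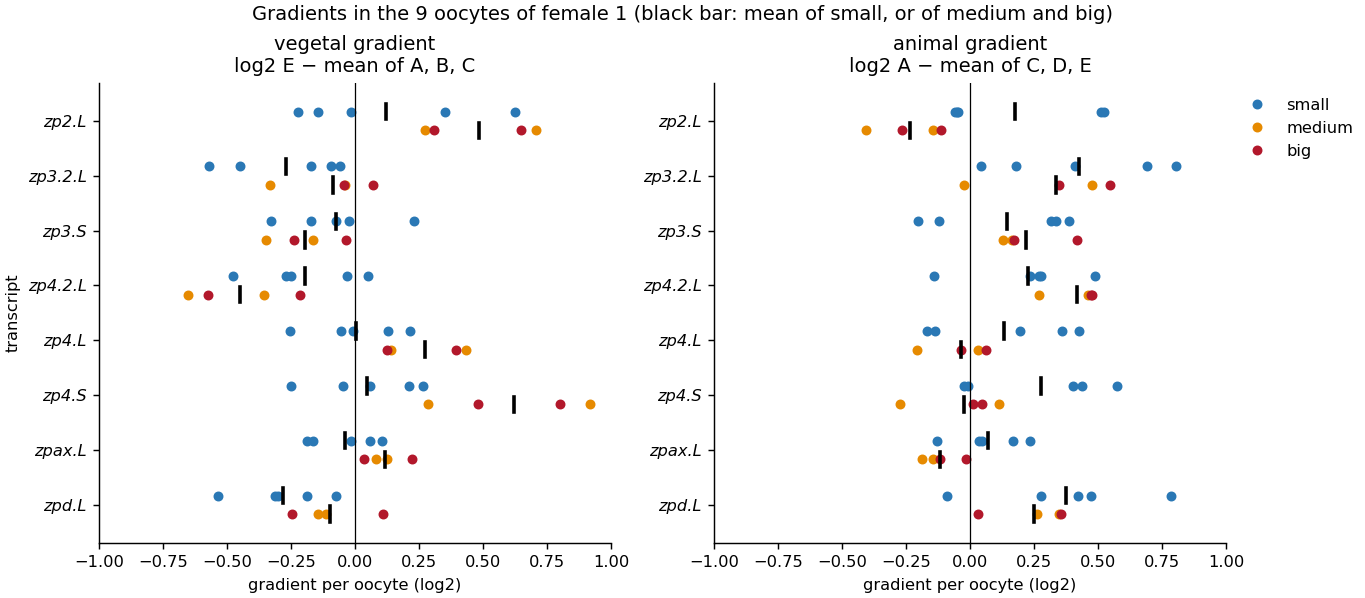
Vegetal gradient (left) and animal gradient (right) of each member in log2 units (horizontal axes), with 1 point per small, medium or big oocyte and black bars for the mean of small and of medium with big oocytes. The vegetal gradients of *zp4.S* lie at 0.29 to 0.92 in medium and big oocytes and at -0.25 to 0.26 in small ones, and those of *zp4.2.L* are all negative in the larger oocytes.

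RNA of surrounding cells was also unevenly spread. In medium and big oocytes 15 of 15 stroma and theca transcripts were called higher in E than in A to C (median gradient 1.42, background 11.6%). The same call was made for 5 of 7 granulosa and follicle cell transcripts (0.99) and 3 of 6 of blood and endothelium (1.08). These are the transcripts that passed the filter on low counts, out of 16, 15 and 14 in the lists. The filter worked by size class and section, so a transcript high only in some sections could pass through these. Stroma and granulosa transcripts were also higher at the animal pole. In small oocytes an animal gradient was called for 10 of 15 stroma and theca (median 1.02) and 4 of 7 granulosa and follicle cell transcripts (0.83). For blood and endothelium it was 2 of 6 (0.54). The background of higher calls there was 10.2%. In medium and big oocytes an animal gradient was called for 5 of 15 stroma (0.59), 3 of 7 granulosa (0.70) and 0 of 6 blood transcripts (0.44). The background was 13.3%. Against section C alone, 12 of 15 stroma transcripts were called higher in A of the larger oocytes (background 7.38%). The stroma sum in section E was 1099 and 613 CPM in medium oocytes 1 and 2 and 447 and 573 CPM in big oocytes 1 and 2, and in section A it was 154, 482, 499 and 461 CPM. Medium oocyte 1, with the highest stroma sum in E, also had the largest vegetal gradient of *zp4.S*, and its section E was the library with the fewest counts. In big oocyte 1 the stroma sum was higher in A than in E, while *zp4.S* stood at 183 CPM in A and 267 CPM in E. In small oocyte 2, where stroma markers were almost absent, the animal gradients of *zp4.S* and *zp4.2.L* were 0.40 and 0.49. Granulosa markers of that oocyte summed to 22.4 CPM in A and 22.2 CPM in E against 10.9 CPM in C and 10.7 CPM in D. What part these cells have in the section differences was not tested.

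The 2 copies of *zp4* were then compared with each other in the same libraries. Depth and scaling cancel within a library, but in oocyte totals each section weighs by its depth. The ratio of *zp4.S* to *zp4.L* counts in the oocyte totals was 1.19 ± 0.0338 in very small (SD, n = 3), 1.11 ± 0.0397 in small (n = 5) and 1.00 ± 0.0408 in medium and big oocytes (n = 4). The small oocytes lay at 1.08 to 1.18 and the larger ones at 0.954 to 1.05, without overlap in these summed counts. Section E of medium oocyte 1, with a ratio of 1.398, added little to its total because that library had only 1014060 counts. The separation is therefore given for this weighting only. It need not hold with equal weights for the sections, which were not tested. How reads common to both copies were counted is not given in the sources used here, so the ratio describes these counts and may not be the ratio of the RNAs.

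Within the larger oocytes the ratio depended on the section. It was 1.04 ± 0.0542 in A, 0.934 ± 0.129 in B, 0.963 ± 0.0320 in C, 0.922 ± 0.0346 in D and 1.25 ± 0.111 in E (SD, n = 4 each). Section E was the highest in each of the 4 oocytes, at 1.398, 1.16, 1.26 and 1.16, whereas in small oocytes it was 1.09 to 1.16 in E and 1.14 to 1.25 in A. The difference between copies along the axis, as the log2 ratio in E minus its mean in A, B and C, was 0.35 ± 0.15 in medium and big (SD, n = 4) and 0.04 ± 0.06 in small oocytes (n = 5). The ranges were 0.14 to 0.49 and -0.0038 to 0.14 and did not overlap, with a difference of 0.31 (two-sided exact permutation test, p = 0.0079, the smallest that 126 arrangements can give). Medium oocyte 2 (0.145) and small oocyte 1 (0.136) were nearly equal. The ratio was chosen for this test after the values of both copies had been seen.

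**Figure D5:**
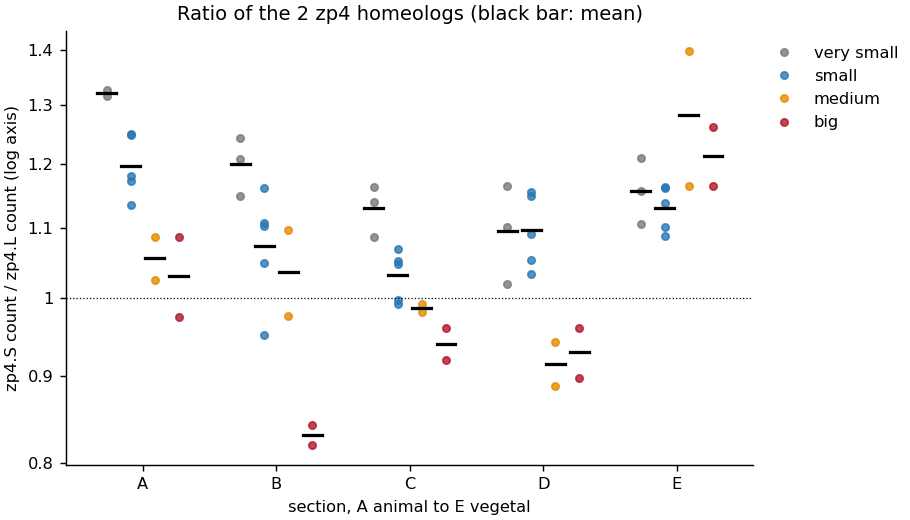
Ratio of *zp4.S* to *zp4.L* counts (vertical axis, log scale) in sections A to E, with 1 point per oocyte coloured by size class and black bars for the means. In medium and big oocytes the ratio is 1.16 to 1.398 in section E and mostly near or below 1 in B, C and D, while very small oocytes stand at 1.316 and 1.326 in A.

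The likeness of other transcripts to *zp4.S* was ranked by correlation. Over the log2 CPM of all 59 libraries, *zp4.L* (Pearson r = 0.91) and *zp2.L* (r = 0.84) ranked first and second among 15702 other transcripts. Outside the family the nearest was *ovch1.L* (r = 0.83), which encodes ovochymase, a protease that *Xenopus* eggs release into the space under the envelope. It was followed by *fundc1.S*, *Xelaev18044446m*, *loc733728.L* and *hexb-like.L*, with r from 0.80 to 0.81. Over the 45 libraries of female 1 the values were 0.91 for *zp4.L*, 0.88 for *zp2.L* and 0.85 for *ovch1.L*. The remaining members were less alike, from 0.76 for *zp3.2.L* (rank 25) and 0.71 for *zpax.L* (rank 53) down to 0.33 for *zp4.2.L* (rank 2481). Among the 28 pairs of members, r ran from 0.27 to 0.91 with a median of 0.68. These are descriptions over libraries that share oocytes and composition.

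*ovch1.L* was selected by its likeness to *zp4.S* in the same libraries, so its values describe that choice and are no independent support. Its total was 112 ± 11.0 CPM in very small (SD, n = 3), 77.04 ± 14.6 in small (n = 5), 50.4 ± 3.05 in medium (n = 2) and 48.8 ± 1.73 in big oocytes (n = 2). Its log2 change from small to medium and big oocytes was -0.62 ± 0.11. It was also lower in small than in very small oocytes (-0.55 ± 0.12), where none of the 8 ZP transcripts was called. Size and female cannot be told apart there, and 43.3% of all transcripts were called. Its vegetal gradient was 0.80 ± 0.10 in medium and big and 0.28 ± 0.08 in small oocytes, where that of *zp4.S* was 0.04.

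Genes with roles around the envelope were described from lists. Of 10 transcripts for transcription factors and oocyte growth factors, 5 were lower in medium and big than in small oocytes (background 8.32%) and none higher (5.55%), with a median log2 change of -0.22. All 5 are also among the 5 lower oocyte markers. They were *lhx8.S* (-0.80 ± 0.09, adjusted p = 0.00024), *zar1.L* (-0.41), *gdf9.S* (-0.30), *lhx8.L* (-0.35) and *gdf9.L* (-0.14). *lhx8* is a homeobox factor required for early oocyte development in mice, *gdf9* a growth factor secreted by the oocyte, and *zar1* a maternal regulator of translation. *figla.L*, the homolog of the factor that activates the zona genes in mouse oocytes, was at -0.09 ± 0.08 (adjusted p = 0.52), and it was named after its value had been seen.

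Along the axis this list held another pair of homeologs that differed. The vegetal gradient of *gdf9.S* in the larger oocytes was 2.23 ± 0.08 (adjusted p = 5.4e-27), while that of *gdf9.L* was -0.04 ± 0.06 (adjusted p = 0.79). *bmp15.L*, a related growth factor, was also higher at the vegetal pole (0.66 ± 0.13, adjusted p = 0.00010), and *taf4b.S* was lower. In total 2 of 9 transcripts were higher (background 11.6%) and 1 lower (10.1%). The difference between the 2 *gdf9* copies was not tested as such.

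Of 74 transcripts for processing and secretion, which cover the proprotein convertases, signal peptidase, glycosylation and COPII genes, 11 were lower (background 8.32%) and 2 higher (5.55%) in medium and big than in small oocytes, with a median of -0.04. *p4hb.S*, a protein disulfide isomerase, changed by -0.18 ± 0.04 (adjusted p = 0.013), and *ost4*, a subunit of the oligosaccharyltransferase, by -0.49 ± 0.14 (adjusted p = 0.045). In the larger oocytes 11 of 73 had a higher and 11 a lower level at the vegetal pole, near the background of 11.6% and 10.1%. The proprotein convertase *pcsk6*, a relative of the furin-type enzymes that cut ZP proteins before assembly, was the steepest, at 5.61 ± 0.19 for *pcsk6.L* and 2.94 ± 0.25 for *pcsk6.S* (adjusted p = 6.5e-29 and 1.3e-13). *man2a1.S*, a Golgi mannosidase, went the other way (-0.60 ± 0.08, adjusted p = 5.2e-08).

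Of 6 tested transcripts in the list headed cortical granule and envelope-modifying proteins, 3 were higher in medium and big than in small oocytes (background 5.55%). They were *pxdn.L* (0.26 ± 0.05, edgeR adjusted p = 0.0097), *pxdn.S* (0.83) and *bmp1.L* (0.50), while *ovch1.L* was lower (background 8.32%). Whether the proteins of this list act at the envelope of these oocytes was not tested. In 5 tested along the axis of the larger oocytes, *bmp1.L*, *pxdn.L* and *ovch1.L* had vegetal gradients of 0.85, 0.81 and 0.80 (background 11.6%). Stroma and theca markers were also higher in the larger oocytes and in their section E. What part surrounding cells have in these values was not tested. Of 12 transcripts for sperm binding and the egg surface, 3 were higher (background 5.55%), *itgb1.L* (0.18), *itgb1.S* (0.13) and *itga6.L* (1.05), and none lower (8.32%). For these 3 integrin transcripts, too, the part of surrounding cells was not tested. *cd9.S*, whose mouse homolog is needed on the egg for fusion with sperm, was lower at the vegetal pole (-0.47 ± 0.12, adjusted p = 0.0022) and higher at the animal pole (0.48 ± 0.10, adjusted p = 0.00052) of the larger oocytes. None of 7 other transcripts with a ZP domain, such as *tgfbr3* and *eng*, was called in the totals of medium and big against small oocytes with edgeR, where none had an unadjusted p under 0.05. Between very small and small oocytes, which come from 2 females, 2 of these 7 were called, where 43.3% of all transcripts were. They were *gp2.S* (1.27 ± 0.18, edgeR adjusted p = 7.4e-05) and *eng.L* (1.61 ± 0.58, adjusted p = 0.044), both higher in small oocytes.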

How the data were processed

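Raw counts per transcript were deposited for the 59 *X. laevis* libraries. The authors depleted rRNA (RiboCop), prepared SureSelect XT libraries, trimmed reads with Trimmomatic, removed rRNA and mitochondrial reads with SortMeRNA, aligned them with STAR 2.5.2b to genome v9.1 and counted with htseq-count. Normalized tables were not used. Of the 8 members, 6 matched a RefSeq symbol (names only).

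With edgeR 4.0.16 (R 4.3.3), counts were TMM scaled, filtered with filterByExpr and tested with quasi-likelihood F tests, Benjamini-Hochberg adjusted over all transcripts tested. A call was an FDR under 0.1. SEs were derived from the log2 change and F. Totals were counts summed over the sections of an oocyte, so that each section weighed by its depth, and were tested over 12 oocytes. Section differences were fitted per size class and gradients over 59 libraries, both with the oocyte as replicate block. Sections with the same number come from the same oocyte, and the 116 section pairs of an oocyte correlated in their deviations with r of -0.14 to 0.65 (median 0.23). Profile changes were tested as size class by section without block. Alternatives used DESeq2 1.42.0, limma 3.58.1, other scaling and filters, and each oocyte left out. Tests were also run on simulated data, with larger fold changes than those of the ZP totals and no correlation between sections of an oocyte. Those data did not cover changes as small as these.

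All members were named, along with the 5 transcripts most like *zp4.S*. From each list at most 4 called transcripts of smallest p-value were planned. Some lists have more named, *figla.L* among them. Members and lists were chosen with earlier results of these data known.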

Additional observations from a re-analysis of the deposited data

Results flagged for a closer look

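Section B of small oocyte 3 had a smaller share of the summed CPM for all 8 members than section B of the 4 other small oocytes. The lowest was 11.1% for *zp2.L* (others 17.1% to 20.8%), while the flag fell on 3 other members. The share was 13.9% for *zp3.2.L* (others 19.98% to 22.2%), 14.2% for *zp3.S* (others 19.4% to 21.2%) and 14.7% for *zp4.L* (others 20.1% to 20.5%). Each was singled out because its gap to the nearest oocyte took most of the range of the group. The 3 values come from 1 library, 48 groups were examined in this way, and chance flags about 1 in 20 groups. The library had 4665863 counts, above the median, and all 8 members summed to 904 CPM there against 1078 to 1360 CPM in section B of the other small oocytes. The cause was not tested. Without small oocyte 3, 8 of 8 members were lower in medium and big than in small oocytes.

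*zp4.S* was listed for a difference between groups, because its section profile differed between small and larger oocytes (adjusted p = 0.0167, edgeR). The share in section E was 17.97% to 22.7% in the 5 small and 23.5% to 31.6% in the 4 larger oocytes.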

How the results depend on the processing

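No called change of a member reversed its direction under any alternative. Leaving out 1 oocyte at a time, the number of members called in the totals was 6 to 8 for medium and big against small, 1 to 6 for medium against small, 0 to 2 for small against very small and 7 to 8 for any difference. Along the axis it was 3 to 4 for the vegetal and 1 to 5 for the animal gradient of medium and big oocytes, 1 to 3 and 2 to 6 for those of small oocytes, 1 to 4 for E against C in medium and big, 0 to 3 for A against C in small, 0 to 3 and 0 to 2 for section differences in small and very small oocytes, 0 to 2 for the profile against small and 0 to 1 for the profile over 4 size classes. In medium and big oocytes the section test could not be fitted with 1 oocyte.

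With sections B to E only, medium against small gave 3 members in place of 6. Section differences in very small oocytes gave 1 with DESeq2, 1 without the replicate block, 0 with all 59 libraries in 1 fit with the replicate block and 2 at an FDR under 0.05, in place of 4. In medium oocytes they gave 1 in place of 2 with DESeq2, without the replicate block and at an FDR under 0.05. In big oocytes they gave 2 with all libraries in 1 fit and 4 without the filter, in place of 1. At an FDR under 0.05, the vegetal gradient of small oocytes gave 1 in place of 2, as did A against C in small oocytes, which gave 1 without the replicate block too. The profile over 4 size classes gave 1 with DESeq2 and 1 with the replicate block in place of 0. The causes were not tested. The block changed no other count by more than 1.5 times.

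Size and female cannot be told apart between very small and small oocytes, medium and big oocytes are 2 each, and levels are relative to the other RNA. The depth sufficed for at least 972 counts of each member per oocyte, but section E of medium oocyte 1 held few of the less expressed ones (41 counts of *zp4.2.L*).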
